A study of Rattus norvegicus with 6 samples.

Results

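The 10 enzymes of oxidative metabolism examined here, 9 cytochromes P450 (Cyp1b1, Cyp2c23, Cyp2d4, Cyp2j4, Cyp2s1, Cyp3a9, Cyp4a1, Cyp4a8 and Cyp4b1) and the flavin-containing monooxygenase Fmo1, were measured in the rat renal cortex after exposure to a nitrosamine. They were read by every array probe whose annotation was a RefSeq transcript of 1 of these genes, 19 of the 61657 non-control probes. The genes were taken by name and not by a measured value, though with earlier results of these data known. The cortex was taken from male rats of the outbred Sprague-Dawley stock, obtained when 5 weeks old. For 4 weeks, 3 rats received N-nitrosodimethylamine (NDMA) at 4 mg/kg/day and 3 rats received water, with 1 Agilent Cy3 array for each animal. The route of dosing was not given in the sources used here.

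Cytochromes P450 are heme enzymes of the endoplasmic reticulum that insert an oxygen atom into a substrate, with electrons passed on from NADPH by the reductase Por. Flavin-containing monooxygenases carry out related reactions with a flavin in place of heme. In the rat kidney, P450 enzymes of the proximal tubule turn arachidonic acid into epoxides and into hydroxylated fatty acids, lipid mediators that act on salt transport and vessel tone, and others oxidise drugs and steroids. NDMA itself is oxidised to its methylating form by Cyp2e1, which is not 1 of the 10.

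Levels are normalised log2 signals, the log2 of the Cy3 intensity of a spot minus that of the 75th percentile of its array, and differences are NDMA minus control in log2 units with the moderated standard error of limma. Most of these genes were detected in the cortex RNA. Of the 19 probes, 16 were well above background on all 6 arrays, a flag that the scanner software sets for each spot. The same was the case for 41163 of all 61657 non-control probes. No other tissue or kidney region was measured, so whether these enzymes are particular to the cortex was not tested. The single probe of Cyp3a9, a steroid- and drug-oxidising enzyme, was not well above background on any array, at -7.74, -7.06 and -6.85 in NDMA animals 1 to 3 and -7.80, -6.83 and -8.14 in controls 1 to 3, so no fold is given for it. The 2 Cyp1b1 probes were dim. Testing required that flag in every animal of 1 group or the other, which 17 of the 19 probes met, covering 9 of the 10 genes. All 12 proximal tubule marker genes were also measured, with a mean normalised log2 signal of 5.72 to 5.92 in NDMA-treated rats and 5.84 to 6.33 in controls, averaged over the list.

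The level of a probe depends on its sequence, so levels of different probes are not set against each other. On each array 43016 to 46248 probes were well above background, and the number of arrays limits the precision. Slide 1 held all 3 controls together with NDMA animal 1, whereas slide 2 held the remaining NDMA animals, so slide and treatment are partly confounded. Hepatocyte markers varied widely within both groups and 0 of 6 passed the test (limma, lowest adjusted p 0.284). Their list mean was 0.46, -3.10 and -2.27 in NDMA animals 1 to 3 and -1.66, -1.19 and -3.98 in controls 1 to 3, and the part of such transcripts in the results below was not tested.

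No member passed the threshold of 0.05 on the adjusted p. In limma 0 of the 17 tested probes passed, 0 lower and 0 higher, against 2.99% of all 43118 probes tested (1289 probes, 0.485% lower and 2.50% higher in NDMA-treated rats), and the lowest adjusted p of a member was 0.0925, for a probe of Cyp2s1. At an unadjusted p under 0.05 there were 7 of 17 probes, from 5 genes (41.2%), beside 18.3% of all probes. The 7 became 4 with quantile normalisation, 4 with the replicate number as a block and 8 with normexp background correction. The count over all probes, 7882, became 8016, 7406 and 10587 in these settings. Slide 2 held no control. A fit with the slide as a block therefore rests on NDMA animal 1 against the controls, as does slide 1 alone. In that contrast the member median was -0.19, against -0.03 over all probes. Whether the count of 7 held within slides cannot be told from 1 such rat. Most member differences lay slightly below 0: 14 of 17 did (82.4%, against 58.1% of all probes), with a median of -0.24 against -0.04 over all probes. By the brightest probe of each gene, 8 of 9 genes lay below 0, against 58.7% of all features. The median of the 17 probes relative to their control means was -0.19, -0.27 and -0.19 in NDMA animals 1 to 3 and 0.09, 0.00 and -0.14 in controls 1 to 3, so control 3 was the control nearest to the NDMA-treated rats. In 6 probes of 5 genes, Cyp2c23, Cyp2d4, Cyp2s1, Cyp4a8 and Fmo1, every NDMA-treated rat was below every control, which was the case for 16.0% of all probes, and in 0 of 17 was every NDMA-treated rat above, against 10.9%. Probes of 1 gene share their target and are not independent, so these shares are a description.

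The size of a change was bounded on most member probes, taken singly. In 13 of the 17 probes the 95% interval of the difference, taken for 1 probe at a time, lay inside a 2-fold change in either direction. The exceptions were the 3 probes of Cyp2j4 and the tested probe of Cyp1b1, whose animals differed widely within groups. The share of all tested probes with such an interval was not counted. The median standard error was 0.13 for the members and 0.12 for all tested probes, so this precision is not particular to the members. A fit with the slide as a block leaves 1 NDMA-treated rat against the controls, so its intervals are not given. With 3 animals a group the smallest two-sided p of an exact permutation test is 0.1, and no such test was run on single probes.

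**Figure D1:**
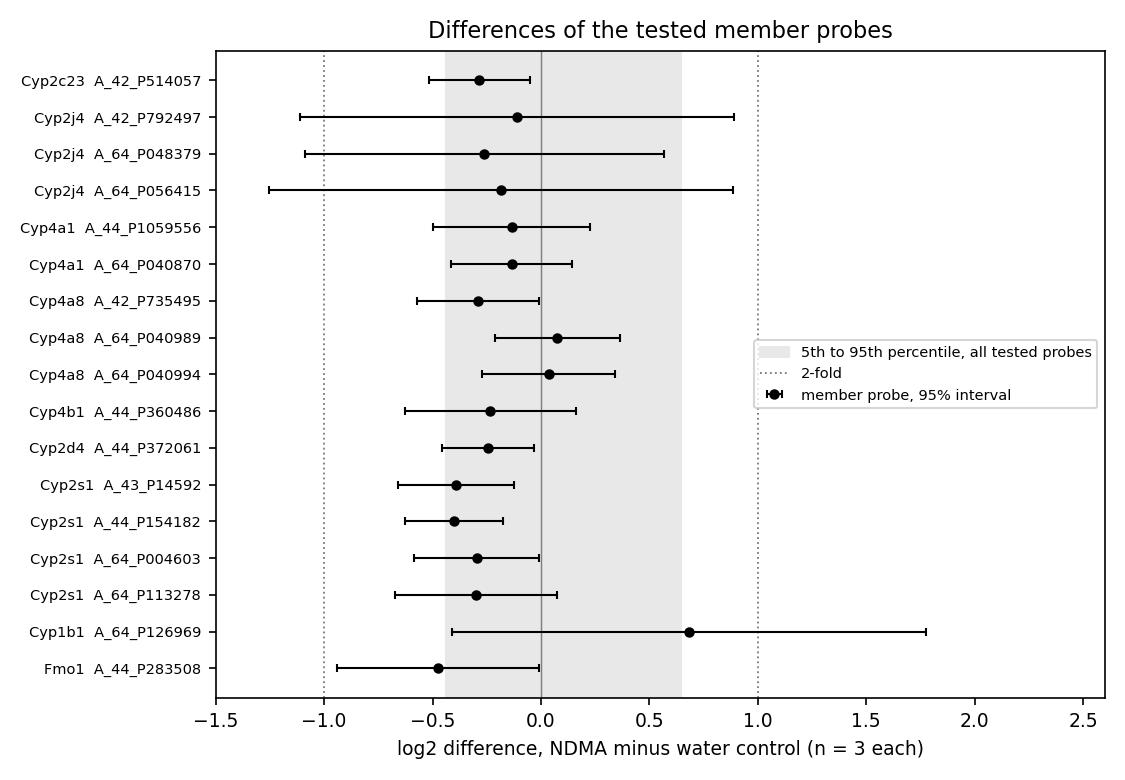
Log2 difference, NDMA minus water control (x axis, log2 units), of each of the 17 tested member probes (rows), with the 95% interval from limma (n = 3 animals per group), the band from the 5th to the 95th percentile of all 43118 tested probes in grey, and 2-fold changes as dotted lines. Intervals of 13 probes lie between the dotted lines, and those of Cyp2j4 and Cyp1b1 reach beyond them.

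Cyp2c23 is the main arachidonic acid epoxygenase of the rat kidney and makes the epoxides that widen renal vessels. Its single probe read 8.49, 8.27 and 8.23 in NDMA animals 1 to 3 and 8.57, 8.61 and 8.66 in controls 1 to 3. The groups did not overlap, with NDMA animal 1 nearest to the controls. The difference was -0.28 ± 0.10 (SE, n = 3 each, adjusted p = 0.202), a 1.22-fold lower level in NDMA-treated rats that did not pass. On slide 1 alone, NDMA animal 1 against the controls, it was -0.13.

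The Cyp2c23 difference depended on how the arrays were scaled. It was -0.20 after normexp background correction, -0.07 after quantile normalisation, and 0.01 with both. Before scaling, the processed intensity of this bright spot was 377732, 402986 and 390346 in NDMA animals 1 to 3 and 397220, 387248 and 414591 in controls 1 to 3, and these ranges overlap. Overlap before scaling was not particular to Cyp2c23. It was also present in each Cyp2d4, Cyp2s1, Cyp4a8 and Fmo1 probe whose scaled groups did not overlap. The Cyp2d4 probe, for example, had processed intensities of 2802, 3098 and 3468 in NDMA animals 1 to 3. In controls 1 to 3 they were 3290, 2891 and 3127. No spot of a member was flagged as saturated on any array. The 75th percentile by which the arrays were divided was 1310 and 1299 on slide 2 and 993 to 1053 on slide 1.

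Cyp2j4 belongs to the 2J subfamily, whose members oxidise arachidonic acid in several organs. Its brightest probe read -0.04, 0.12 and -0.63 in NDMA animals 1 to 3 and 0.97, -0.72 and -0.25 in controls 1 to 3. Control 1 was the highest and control 2 the lowest of all 6 animals, and the groups overlapped fully. The difference was -0.19 ± 0.44 (SE, adjusted p = 0.851). The other two probes differed by -0.11 ± 0.42 and -0.26 ± 0.34 and ranked the controls alike, with control 1 highest and control 2 lowest. The spread among controls was 1.69, 1.52 and 1.37 log2 units on the 3 probes, and the pooled standard deviation within groups was above that of 95.5% to 97.8% of all tested probes. Without control 1 the 3 differences were 0.30, 0.34 and 0.13, of the opposite sign.

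Cyp2j3, a related epoxygenase known from rat heart, was read by 4 probes. Control 1 was the highest control on each of the 4, and control 2 the lowest on 3 of them, with ranges among controls of 0.54 to 1.39. Its brightest probe differed by 0.15 between the groups (adjusted p = 0.746). The probes of Cyp2j3 and Cyp2j4 may bind transcripts of related genes, which was not tested.

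**Figure D2:**
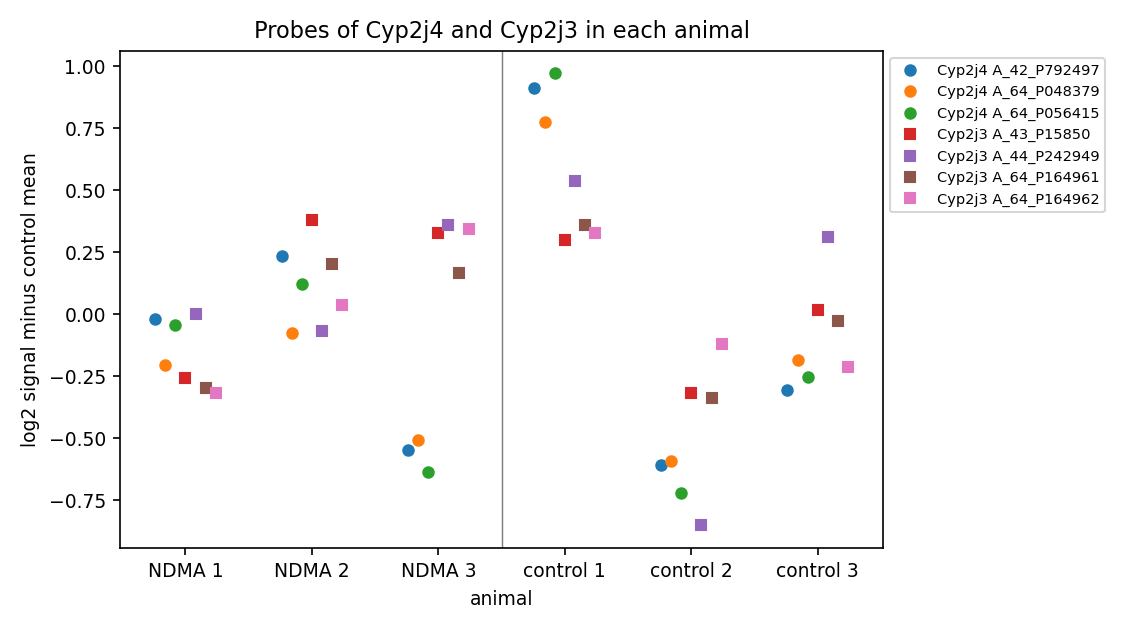
Normalised log2 signal minus the probe's control mean (y axis) in each of the 6 animals (x axis) for the 3 probes of Cyp2j4 (circles) and the 4 probes of Cyp2j3 (squares). Control 1 has the highest Cyp2j4 value on all 3 probes and control 2 the lowest, and the NDMA-treated rats lie between them.

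Cyp4a1 and Cyp4a8 hydroxylate the end of fatty acid chains, and Cyp4a1 is a classic gene switched on by the nuclear receptor PPARalpha in rat liver and kidney. The brighter Cyp4a1 probe read 5.63, 5.54 and 5.71 in NDMA animals 1 to 3 and 5.94, 5.77 and 5.58 in controls 1 to 3. The groups overlapped, since control 3 lay among the NDMA-treated rats. The difference was -0.14 ± 0.12 (SE, adjusted p = 0.558, 95% interval -0.41 to 0.14), and the other probe gave -0.13 ± 0.15. Both depended on single controls, being -0.047 and -0.0068 without control 1 and -0.23 and -0.27 without control 3.

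The 3 probes of Cyp4a8, a hydroxylase of rat kidney, gave differences of both signs. The brightest read 8.08, 7.88 and 8.15 in NDMA animals 1 to 3 and 8.36, 8.45 and 8.16 in controls 1 to 3, all NDMA-treated rats being lower by a narrow margin. Its difference was -0.29 ± 0.12 (SE, adjusted p = 0.259), and it was -0.08 with quantile normalisation. The other two differed by 0.08 ± 0.12 and 0.04 ± 0.13 with overlapping groups, so no direction is given for this gene. The genes of the Cyp4a subfamily are close in sequence, and binding of related transcripts to these probes was not tested.

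Cyp4b1, which oxidises fatty acids and activates plant toxins outside the liver, read -1.04, -1.03 and -0.71 in NDMA animals 1 to 3 and -0.66, -0.97 and -0.44 in controls 1 to 3. The groups overlapped, and the difference was -0.23 ± 0.16 (SE, adjusted p = 0.478). It was -0.11 without control 3 and -0.38 without control 2.

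Cyp2d4 is a member of the drug-oxidising 2D subfamily that is known from rat brain as well as liver. It read 1.41, 1.24 and 1.42 in NDMA animals 1 to 3 and 1.66, 1.54 and 1.61 in controls 1 to 3. The animals of a group lay close together and the groups did not overlap. The difference was -0.24 ± 0.09 (SE, adjusted p = 0.218, 1.18-fold lower), normexp gave -0.26, quantile normalisation -0.23, and slide 1 alone -0.19. Of its tested relatives, Cyp2d1, Cyp2d2, Cyp2d3 and Cyp2d5 differed by -0.38, -0.06, -0.40 and -0.37, and none passed. The Cyp2d3 probe was dim and well above background in 2 of 3 NDMA-treated rats. Probes of this subfamily may bind related transcripts, which was not tested, so these are not read as separate genes that move alike.

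Fmo1, which adds oxygen to nitrogen and sulfur atoms of drugs and is abundant in adult rodent kidney, read 5.36, 4.65 and 5.26 in NDMA animals 1 to 3 and 5.66, 5.57 and 5.48 in controls 1 to 3. All NDMA-treated rats were below the controls, with NDMA animal 2 well below the others. The difference was -0.48 ± 0.19 (SE, adjusted p = 0.264, 1.39-fold lower), the lowest among the members, and did not pass. It was -0.26 without NDMA animal 2 and -0.21 on slide 1 alone. The related enzymes Fmo5, Fmo4 and Fmo2 also had differences below 0, and none of them passed. Fmo5 differed by -0.68 ± 0.14 (adjusted p = 0.0605), Fmo4 by -0.46 ± 0.15 (adjusted p = 0.185) and Fmo2 by -0.32 ± 0.21 (adjusted p = 0.451).

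**Figure D3:**
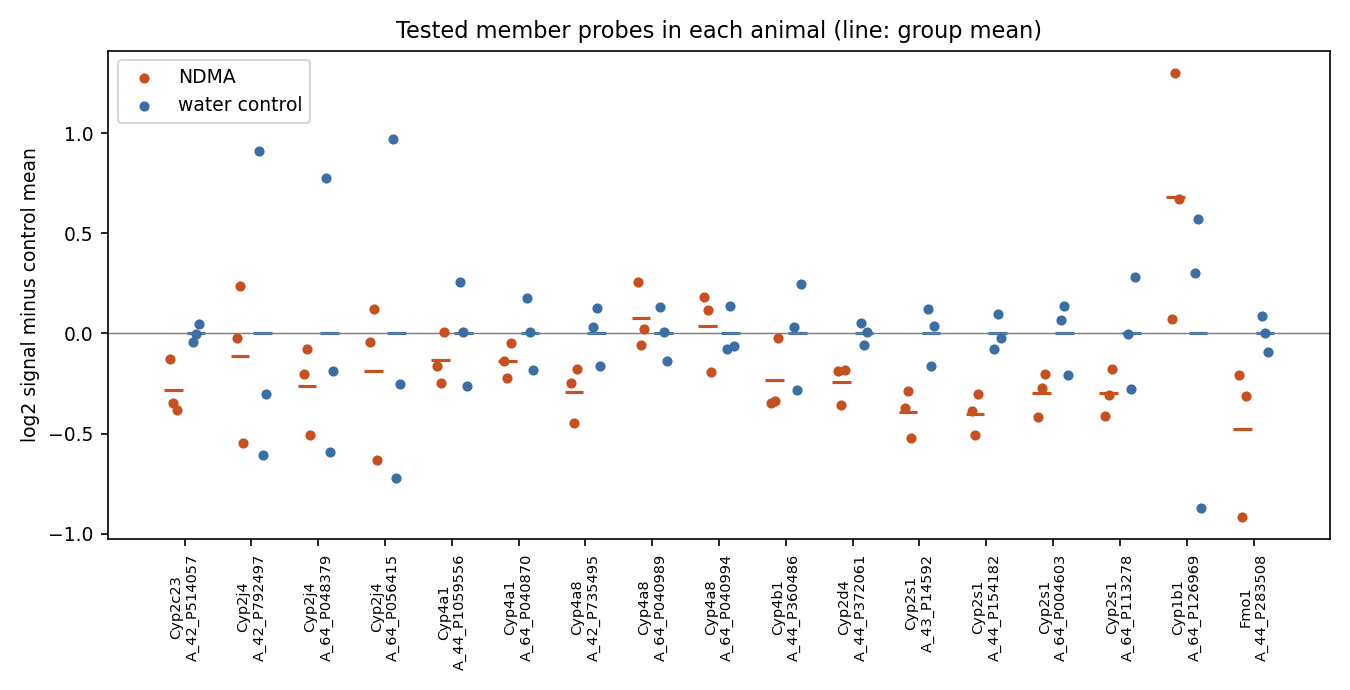
Normalised log2 signal minus the probe's control mean (y axis) for each of the 17 tested member probes (x axis), with 1 point per animal, NDMA left and water control right, and a line at each group mean (n = 3 each). All NDMA-treated rats lie below all controls in 6 probes, and the Cyp2j4 and Cyp1b1 probes have the widest scatter.

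Cyp2s1, an enzyme of epithelia outside the liver that dioxin can induce, was the member nearest to the threshold and the one read by most probes. The promoter of Cyp2s1 and that of Cyp1b1 are shown because these 2 genes are known to respond to the aryl hydrocarbon receptor, a factor that binds a core of GCGTG. They are the 300 bases from 250 before to 50 after the gene's start, from RefSeq on build GRCr8, 5′ to 3′ along the gene, at chr1:90453024-90453323 (minus strand) and chr6:21094315-21094614 (plus strand). Capitals mark GCGTG or its reverse complement CACGC, and AGGTCA or TGACCT, the half-site of many nuclear receptors.
Cyp2s1: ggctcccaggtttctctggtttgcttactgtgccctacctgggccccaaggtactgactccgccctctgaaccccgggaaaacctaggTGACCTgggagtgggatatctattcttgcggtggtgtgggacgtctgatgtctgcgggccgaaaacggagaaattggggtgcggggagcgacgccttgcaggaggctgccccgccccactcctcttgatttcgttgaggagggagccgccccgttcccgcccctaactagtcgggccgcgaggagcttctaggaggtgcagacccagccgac
Cyp1b1: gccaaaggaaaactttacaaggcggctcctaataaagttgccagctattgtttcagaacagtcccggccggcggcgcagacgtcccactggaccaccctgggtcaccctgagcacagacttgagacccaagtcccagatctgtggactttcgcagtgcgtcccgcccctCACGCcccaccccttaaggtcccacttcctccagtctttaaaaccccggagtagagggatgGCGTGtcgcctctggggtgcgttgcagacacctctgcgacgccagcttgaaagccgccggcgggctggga
The GCGTG core occurred in 2 places before the start of Cyp1b1, the half-site in 1 place before that of Cyp2s1, and neither motif in the windows of the other 7 members with an entry. Of all 33469 promoters of this length, 29.7% held the first and 16.2% the second on either strand. A match describes letters and is not evidence of binding.

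The brightest of the 4 Cyp2s1 probes read -0.44, -0.36 and -0.60 in NDMA animals 1 to 3 and 0.05, -0.23 and -0.04 in controls 1 to 3. The probe with the lowest p read -4.38, -4.50 and -4.30 in NDMA animals 1 to 3 and -4.07, -3.90 and -4.02 in controls 1 to 3. On both the groups did not overlap, and they did on the other two. The differences of the 4 probes were -0.39 ± 0.11, -0.40 ± 0.09, -0.30 ± 0.12 and -0.30 ± 0.16 (SE, adjusted p = 0.145, 0.0925, 0.262 and 0.356). All 4 lay below 0 and none passed. The last of them was -0.16 without control 3 and -0.44 without control 2. On slide 1 alone the 4 were -0.37, -0.39, -0.42 and -0.41.

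Among the 12168 other named genes with complete values, the 3 whose pattern over the 6 arrays was most like that of Cyp2s1 were Lynx1, Rtn1 and Or56a5. Likeness was the root-mean-square difference of log2 values after subtraction of each gene's control mean, and it was 0.04, 0.05 and 0.05. Their own differences were -0.42, -0.44 and -0.42, and none passed. With normexp background correction 0 of these 3 were still the nearest.

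Cyp1b1 oxidises polycyclic hydrocarbons and estrogens and is induced through the aryl hydrocarbon receptor in many tissues. Its tested probe read -5.67, -4.44 and -5.07 in NDMA animals 1 to 3 and -5.44, -5.17 and -6.62 in controls 1 to 3, where control 3 was not well above background. The groups overlapped, and the difference of 0.68 ± 0.45 (SE, adjusted p = 0.459) was the highest of the members. It was 0.25 without control 3, 0.37 without NDMA animal 2 and 0.12 with normexp. With the slide as a block, which leaves NDMA animal 1 against the controls, it was 0.07. The other probe was well above background in 2 of 3 NDMA-treated rats and in 0 of 3 controls. Its measured means were -5.38 in NDMA-treated rats and -6.43 in controls. Each control was then set to the lowest well-detected signal of its array if it lay under that, which put the means 1.59-fold apart. That figure takes no account of the spread between animals and is not a lower bound on a change. Without a filter its adjusted p was 0.303.

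The choice of scaling moved the members by different amounts. With quantile normalisation in place of the 75th percentile the member median was -0.19, and with normexp and quantile normalisation -0.16. The authors' value table, which holds each processed intensity divided by the 75th percentile of its array, gave -0.24.

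**Figure D4:**
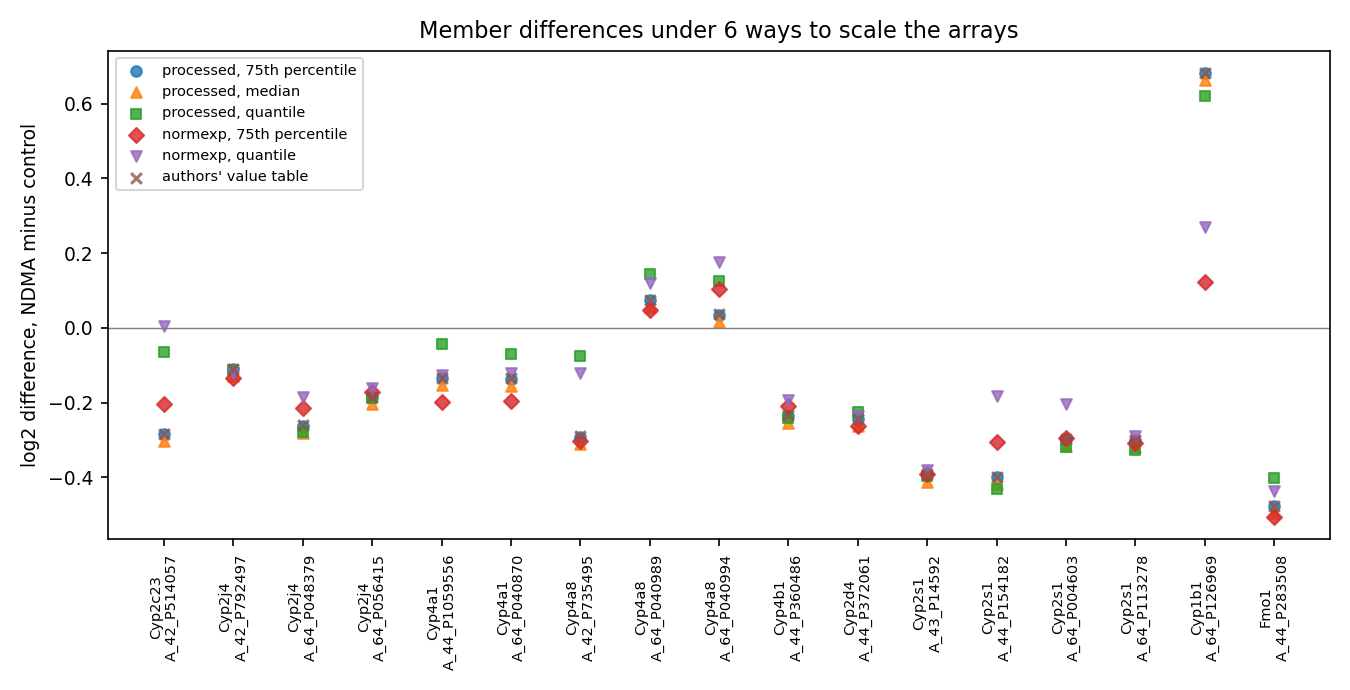
Log2 difference, NDMA minus water control (y axis), of each tested member probe (x axis) under 6 ways of scaling the arrays (symbols). Cyp2c23 ranges from -0.30 to 0.01 and Cyp1b1 from 0.12 to 0.68, whereas Cyp2d4 lies at -0.24 in the main scaling and -0.26 with normexp.

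Other cytochromes P450 were examined as lists, each gene read by its brightest probe and tested over 31915 features, of which 3.00% passed. Of 36 further genes of families 1 to 3, most of them enzymes of drug and steroid metabolism, 14 were tested, and none passed in either direction, with a median of -0.08. Cyp2e1 read 6.50, 6.38 and 6.29 in NDMA animals 1 to 3 and 6.55, 6.33 and 6.25 in controls 1 to 3. The groups overlapped, with a difference of 0.01 ± 0.11 and a 95% interval of -0.26 to 0.28. The 2 with the lowest p were Cyp2t1, at -0.15 ± 0.10 (adjusted p = 0.433), and Cyp2b12, at 0.36 ± 0.20 (adjusted p = 0.379), whose sign turned with normexp. The Cyp2b12 probe was dim, and well above background in 3 of 3 NDMA-treated rats and in 1 of 3 controls. No probe was matched to Cyp2c24.

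Of 13 further genes of family 4, 10 were tested and 0 passed, with a median of -0.19. Cyp4a2, a fatty acid hydroxylase of rat kidney, read 8.67, 8.60 and 8.70 in NDMA animals 1 to 3 and 8.87, 8.99 and 8.88 in controls 1 to 3. The groups did not overlap, and the difference was -0.26 ± 0.08 (adjusted p = 0.175). Cyp4f1 differed by -0.22 ± 0.09 (adjusted p = 0.255). Cyp4a3, another hydroxylase of the subfamily, differed by -0.18 ± 0.34, with levels of 7.12, 8.51 and 8.20 in controls 1 to 3.

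Of 13 tested genes of sterol, vitamin D and retinoid metabolism 1 rose, and the median was 0.08. The one was Cyp26b1, which breaks down retinoic acid. It read 1.09, 0.68 and 0.39 in NDMA animals 1 to 3 and -0.48, -0.68 and -0.70 in controls 1 to 3, with no overlap. The difference was 1.34 ± 0.18 (SE, n = 3 each, adjusted p = 0.0193, limma), 2.54-fold higher. The difference lay between 1.16 and 1.51 without 1 animal. With the slide as a block, which leaves NDMA animal 1 against the controls, it was 1.71. The call, though not the size, was lost without control 1, 2 or 3, without NDMA animal 2 and without a filter. On slide 1 alone the same 1 rat stands against the controls, so no call is given.

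Of the 12 electron donors and partner enzymes 0 passed, with a median of -0.12. Por, the reductase that supplies the microsomal P450s, differed by -0.10 ± 0.11 (adjusted p = 0.674). Alas1, which starts heme synthesis, differed by -0.42 ± 0.13 (adjusted p = 0.175), and Ephx1, the microsomal epoxide hydrolase, by 0.35 ± 0.13 (adjusted p = 0.239). Ephx2, the soluble hydrolase that removes the epoxides made by Cyp2c23, read 1.87, 2.10 and 1.40 in NDMA animals 1 to 3 and 2.02, -1.53 and 1.80 in controls 1 to 3. Control 2 alone stood far below the other 5 animals, so the difference of 1.02 ± 0.93 (adjusted p = 0.579) became -0.13 without it.

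Of the 12 receptors and factors that control P450 genes 0 passed over genes, with a median of -0.12. Ppara, which encodes PPARalpha, read -1.25, -0.52 and -0.94 in NDMA animals 1 to 3 and 0.02, 0.63 and 0.23 in controls 1 to 3 by its brighter probe. The groups did not overlap, and the difference was -1.20 ± 0.23 (adjusted p = 0.0542 over genes, 0.0532 over probes). The other Ppara probe differed by -1.21 ± 0.20 and passed over probes (adjusted p = 0.0342). Nr1i2, the receptor PXR, which induces drug-oxidising P450s, differed by -0.34 ± 0.08 by its brighter probe (adjusted p = 0.0844 over genes) and by -0.16 ± 0.10 by the other (adjusted p = 0.424 over probes). Ahr, the aryl hydrocarbon receptor, differed by -0.03 ± 0.19 (adjusted p = 0.939).

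Of 15 PPARalpha target genes other than those of the Cyp4a subfamily 0 passed, with a median of -0.02. Acaa1a, a thiolase of peroxisomal fatty acid oxidation, differed by -0.29 ± 0.10 (adjusted p = 0.209). Of 7 aryl hydrocarbon receptor targets 4 were tested and 0 passed. Nqo1, a quinone reductase, differed by 0.76 ± 0.34 (adjusted p = 0.293) and Ahrr, the repressor of the receptor, by 0.38 ± 0.25 (adjusted p = 0.459).

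Some cell type markers passed the test, whereas no member did. All 12 proximal tubule genes lay below 0, against 58.7% of all features. Of the 12, 1 passed the test, and their median was -0.30, beside -0.24 for the members. The one that fell was Lrp2, the endocytic receptor megalin (-0.57 ± 0.10, adjusted p = 0.0448), whose difference lay between -0.63 and -0.48 without 1 animal. It was -0.44 with the slide as a block, which leaves NDMA animal 1 against the controls. The other Lrp2 probe differed by -0.55 ± 0.13 and did not pass over probes (adjusted p = 0.0945). The call of Lrp2 was lost in each of the 6 fits without 1 animal, without a filter, with quantile normalisation and with the replicate number as a block. Of 6 genes listed for macrophages 5 rose and 0 fell. The list mean was 1.77 to 2.04 in NDMA-treated rats and 0.76 to 1.01 in controls. The 5 were Cd68, C1qa, C1qb, Csf1r and Ptprc, of which Ptprc marks leukocytes in general. A dimmer Csf1r probe, at 0.36 ± 0.11, did not pass over probes (adjusted p = 0.175). The remaining gene, Adgre1, differed by 0.15 ± 0.17 (adjusted p = 0.661). All 4 T cell genes rose, with means of -0.51 to -0.25 in NDMA-treated rats and -2.71 to -2.01 in controls. No marker of these 3 lists was without a probe well above background. The part of these shifts in the member differences was not tested, and in whole cortex fewer cells of a type and less RNA per cell cannot be told apart. In the podocyte, endothelial, fibroblast and mural, collecting duct, loop of Henle and distal tubule, and adrenal cortex lists 0 genes passed. All 5 collecting duct genes also lay below 0, with a median of -0.20, as did the 2 tested adrenal cortex genes. Of the loop and distal tubule genes 3 of 4 did, of the endothelial genes 4 of 6, and of the fibroblast and mural genes 4 of 6. Only 1 of 5 podocyte genes lay below 0.

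**Figure D5:**
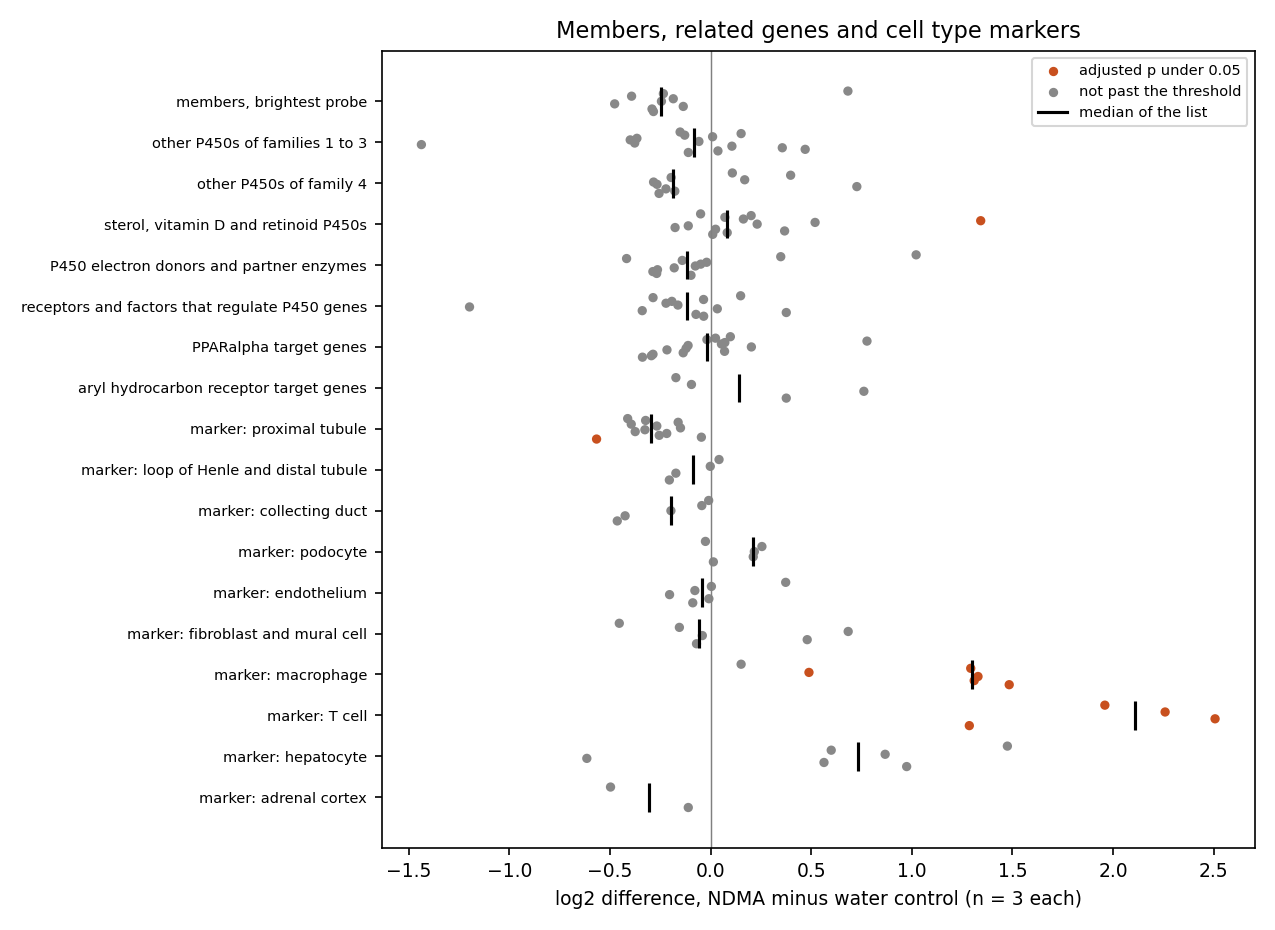
Log2 difference, NDMA minus water control (x axis, n = 3 each), of each tested gene (points) in the member list, 7 lists of related genes and the marker lists (rows), with coloured points past an adjusted p of 0.05 and a bar at each list's median. The members and the proximal tubule and collecting duct markers lie mostly just below 0, and the macrophage and T cell markers lie to the right.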

How the data were processed

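Total RNA of the renal cortex was labelled with Cy3 and read on 1-colour Agilent arrays, per the labels' protocols. The authors obtained spot intensities with Agilent Feature Extraction (10.7.1.1 per the file headers, and 10.7 in the submitters' processing notes), and the processed intensity they deposited was used. The table of values from the authors gives a linear ratio, found to equal processed intensity divided by the 75th percentile of the array to within 0.00174 log2 units for values above 0.1, with column medians of 0.110 to 0.115, so its scale and direction are known and no centring was found. The array annotation uses build rn4, so gene coordinates are not given.

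The log2 of each processed intensity was lowered by that of the 75th percentile over 61657 non-control probes, and 18 values flagged as outliers among the probes tested were set missing, none of a member. Names came from the RefSeq table of GRCr8 by accession without version, for 27460 probes, and 34197 kept the file's name. The comparison used lmFit and eBayes of limma 3.58.1 under R 4.3.3 (two-sided), where 4 residual degrees of freedom were joined by 2.40 from the prior. Benjamini-Hochberg adjustment ran over all 43118 probes, or over 31915 features with the brightest probe of each gene, at a threshold of 0.05. Intervals are 95% moderated intervals for single probes. The fit was tested on simulated arrays. Each array is a different rat, as the design text of the series states.

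The members, lists and tests were chosen with earlier results of these data known. The named genes were every member probe, 8 set genes (Cyp2e1, Cyp4a2, Cyp4a3, Cyp2c24, Por, Ephx2, Ppara and Ahr), from each list up to 4 genes past the threshold or else the 2 with the lowest p, and the 3 genes most like the member with the lowest p. Some genes of the lists are not reported here. Markers past the test, and Adgre1, Cyp2j3, Cyp2d1, Cyp2d2, Cyp2d3, Cyp2d5, Fmo2, Cyp2c11, Alb, Ttr and the genes like Cyp2j4, were named after their values were seen. The files have no mean spot signal, so the planned normexp correction used the deposited median intensity of spot and background with an offset of 50, which was chosen after seeing the data. Further alternatives were the median of each array, quantile normalisation, the value table, other filters, outlier spots kept, a trended and robust variance, the slide and the replicate number as blocks, slide 1 alone, the mean of a gene's probes and the fits without 1 animal.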

Additional observations from a re-analysis of the deposited data

How the results depend on the processing

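No member probe and no member gene passed in limma under any of the alternatives run, and the lowest adjusted p of a member was 0.0691, for a Cyp2s1 probe with normexp. The count of member probes called was 0 in each, the fits without 1 animal included, which ranged from 0 to 0. The member median was -0.24 and lay between -0.29 and -0.22 without 1 animal, and every other setting moved it by less than the spread between animals (0.0870). The count of all probes called was 1289, 1080 higher and 209 lower in NDMA-treated rats, a split that became 942 and 509 with normexp. It was 488 without a filter, 82 with the slide as a block, 0 on slide 1 alone (4667 at an unadjusted p under 0.05 in limma), where 1 NDMA-treated rat stands against 3 controls, and between 464 and 987 without 1 animal: 987, 593 and 500 without NDMA animals 1, 2 and 3 and 464, 692 and 707 without controls 1, 2 and 3. With the replicate number as a block it was 511, and the member median stayed at -0.24. For animals of the same number, the correlations of their deviations from the group means were 0.03, -0.05 and 0.01. Not every animal correlated best with its own number. With 3 animals a group, these values cannot tell whether animals of the same number were handled together.

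The signs of the following values turned, and the cause was not tested. Cyp2c23 was at 0.0057 with normexp and quantile normalisation, Cyp2e1 at -0.0089 with the median of each array and Cyp2b12 at -0.074 with normexp. Without 1 animal the lowest and highest differences were -0.41 and 0.34, -0.56 and 0.13, and -0.55 and 0.30 for the 3 Cyp2j4 probes, -0.017 and 0.14, and -0.037 and 0.15 for 2 Cyp4a8 probes, -0.053 and 0.10 for Cyp2e1, -0.59 and 0.11 for Cyp4a3, -0.13 and 1.65 for Ephx2, and -0.23 and 0.11 for Ahr. Ppara passed over genes under 5 of the alternatives and Fmo5 under 3.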

Other observations

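Single animals stood apart in several related genes within the control group, in ways the treatment labels do not describe. Cyp2c11, a steroid hydroxylase of male rat liver, read -1.66, -3.04 and -3.54 in NDMA animals 1 to 3 and 1.77, -1.99 and -3.70 in controls 1 to 3. Control 1, the highest there, was also the highest in Cyp2j4 and the lowest control in Cyp4a3, and control 2 was the lowest in Ephx2 and Cyp2j4 and the highest control in Cyp4a3. Albumin (Alb) and transthyretin (Ttr), both secreted by the liver, followed another order. Alb read 3.01, -4.08 and -1.03 in NDMA animals 1 to 3 and -0.15, 0.74 and -5.61 in controls 1 to 3, and Ttr read 2.45, -4.52 and -1.54 in NDMA animals 1 to 3 and -0.95, 0.38 and -4.84 in controls 1 to 3.

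The 3 named genes most like Cyp2j4 over the 6 arrays were Olig2, Col14a1 and Trank1, with root-mean-square differences of 0.21, 0.23 and 0.25 log2 units. Relative to their control means they were at 0.73, 0.84 and 0.90 in control 1 and at -0.60, -0.52 and -0.47 in control 2, against 0.97 and -0.72 for Cyp2j4.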
